A study of Homo sapiens with 8 samples.

Results

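Nucleolar and MYC-driven growth genes were described in poly(A) RNA of human acute myeloid leukaemia cells in which METTL14 had been lowered. The set was 51 listed gene symbols. Their rows were taken by name and not by their values, but the members had been chosen with earlier results of these data known. Of these, 50 had a row in both deposited tables, which list 16726 genes each, and EIF4A1 was not analysed here. All 50 passed the filter on low values used in the tests below.

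The groups were NB4 cells with the METTL14 hairpin shM14 (labelled shM14-#2), NB4 cells with the non-specific hairpin shNS, MM6 (MonoMac 6) cells with shM14 and MM6 cells with shNS, with 2 libraries in each. All 4 groups had been transduced with a lentiviral pLKO.1 vector and held under 0.5 µg/mL puromycin for 2 passages, so the controls carried a vector and the drug as well. METTL14 pairs with METTL3 to deposit N6-methyladenosine on RNA, and the question was which transcripts change when it is lowered. A hairpin of 1 sequence was used against METTL14, and nothing in the labels says that the 2 replicates of a group were grown separately, so p-values describe the spread of these libraries, which may be technical.

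The nucleolus is the site where ribosomal RNA is transcribed, cut, modified and assembled with ribosomal proteins into the small and large ribosomal subunits. RNA polymerase I makes the precursor, small nucleolar RNA-protein particles (snoRNPs) guide its modification, and separate sets of assembly factors mature each subunit. MYC is a transcription factor that drives this machinery together with enzymes of polyamine and nucleotide synthesis, and leukaemic blasts are known for large nucleoli and a high demand for ribosomes. The members are grouped here by these roles.

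Depth was 23272126 to 28814911 reads per library over the listed genes, and the least read member in any library, UTP15, still had 665 reads. Levels are given in RPKM, reads scaled to the length of the gene model and to the size of the library, so that they can be compared between genes. METTL14 had 8.35 and 8.35 RPKM in NB4 shM14 and 14.1 and 12.5 RPKM in NB4 shNS, and 6.54 and 6.55 RPKM in MM6 shM14 against 12.5 and 13.4 RPKM in MM6 shNS. Its log2 change was -0.61 in NB4 (adjusted p = 0.0024), and its change of -0.88 in MM6 did not pass when MM6 was fitted alone (adjusted p = 0.088) but did in the model of all 8 libraries (adjusted p = 0.0032). Over both lines together METTL14 fell by 0.75 (adjusted p = 0.0032), a call kept in each of the 15 alternatives. Both lines are labelled as acute monocytic leukemia. The 5 promyelocyte markers summed to 2318 to 2666 RPKM in NB4 and 4368 to 5021 RPKM in MM6, but on different genes. MPO had 2117 to 2490 RPKM in NB4 and 35.1 to 103 RPKM in MM6, and ELANE had at most 6.83 RPKM in NB4 and at least 1599 RPKM in MM6. The 8 monocyte markers summed to at most 146 RPKM in NB4 and at least 5911 RPKM in MM6. Erythroid markers summed to under 1 RPKM in every library.

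MYC binds DNA with its partner MAX at the E-box, and the promoters of the members were searched for its canonical form CACGTG, which reads the same on both strands. Promoter windows of 300 bases, 250 before and 50 after a start site, came from RefSeq on GRCh38.p14 and covered 41 of the 50 members. RRS1, NOLC1, RANBP1, BOP1, NOP58, RRP12, RRP1B, DDX18 and TCOF1 had no window. The motif was present in 23 of the 41 (56.1%), against 1167 of the 9085 other genes tested in NB4 (12.8%) and 2396 of 27305 genes of the whole table (8.77%). Counting only sites upstream of the start, it was in 10 of 41 members (24.4%) and 1044 of the 9085 others (11.5%). The members had been listed as growth genes under MYC, so this is a description of the list.

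The stretches of 60 bases below were chosen by motif and change together, so they cannot show a link between motif and change. The first belong to members whose RNA rose in NB4, or came close to the threshold, with an E-box upstream of the start. After them come the 3 members that fell in NB4 and had no E-box in their window. Not shown are PPAT, IMP4, LYAR, NAT10 and UTP20, which had an upstream site and did not pass. WDR12, UTP15 and NIP7 rose without an E-box in their window, and GNL3 fell with one at position 7. Each stretch is written 5′ to 3′ on the gene's strand, and capitals mark the E-box.
ODC1: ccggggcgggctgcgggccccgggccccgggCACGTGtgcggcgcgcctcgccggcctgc
SRM: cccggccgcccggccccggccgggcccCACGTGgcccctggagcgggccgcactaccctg
CDK4: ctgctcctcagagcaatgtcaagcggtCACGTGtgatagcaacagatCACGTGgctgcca
EIF4E: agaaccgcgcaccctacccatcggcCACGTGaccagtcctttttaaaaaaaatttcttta
DDX21: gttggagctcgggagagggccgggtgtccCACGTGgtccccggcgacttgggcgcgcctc
NCL: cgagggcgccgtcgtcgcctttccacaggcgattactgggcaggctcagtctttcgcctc
NPM1: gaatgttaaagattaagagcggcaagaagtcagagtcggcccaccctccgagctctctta
NOB1: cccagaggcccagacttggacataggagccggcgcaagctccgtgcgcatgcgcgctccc
The ODC1 stretch is at chr2:10448013-10448072 on the minus strand, with the site at position -29 when the base before the start is -1. ODC1 had 2 windows, and positions were counted from the start of each. A site at position 6 was also recorded, which may be the same motif counted from the other start. SRM (chr1:11060185-11060244, minus strand) had its site at -199. CDK4 (chr12:57752494-57752553, minus strand) had sites at -216 and -196, both shown, and at -101. EIF4E (chr4:98929324-98929383, minus strand) had sites at -225, shown, and -72. DDX21 (chr10:68956587-68956646, plus strand) had its site at -31. The stretches of NCL (chr2:231464485-231464544, minus strand), NPM1 (chr5:171387056-171387115, plus strand) and NOB1 (chr16:69754927-69754986, minus strand) run up to the base before the start. The absence of the motif there says only that these letters are not in the window.

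In NB4, the knockdown cells had more RNA of the polyamine enzymes ODC1 and SRM and of the nucleolar protein TCOF1, and less of the ribosome assembly endonuclease NOB1 and of the abundant nucleolar proteins NCL and NPM1. Of 50 members 16 were higher, 4 were lower and 30 did not pass an adjusted p of 0.05 (limma on log2(RPKM + 1), adjusted over 11531 genes), where 22.1% of all tested genes were higher and 25.2% lower. The median change of the members was 0.10 in log2, beside -0.01 over all tested genes, so most changes were small. The groups did not overlap for 29 members that were higher and 7 that were lower, against 37.2% and 40.0% of all tested genes. Of the members, 27 were higher and 4 lower in the authors' deposited table under their adjusted p of 0.05, where 22.1% and 21.5% of the listed genes were. The count depended on the libraries and the model: 5 members passed without knockdown replicate 1, 7 without knockdown replicate 2, 15 without control replicate 1, 13 without control replicate 2, and 3 (ODC1, TCOF1 and NOB1) when all 8 libraries shared 1 model. Those 3 passed under each of the 12 alternatives tried in NB4. Summed RPKM of 8 monocyte markers was 146 in both knockdown libraries and 50.8 and 52.7 in controls, and the part of this shift in the members' changes was not tested. In bulk RNA, more cells with these markers and more of their RNA per cell cannot be told apart.

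**Figure D1:**
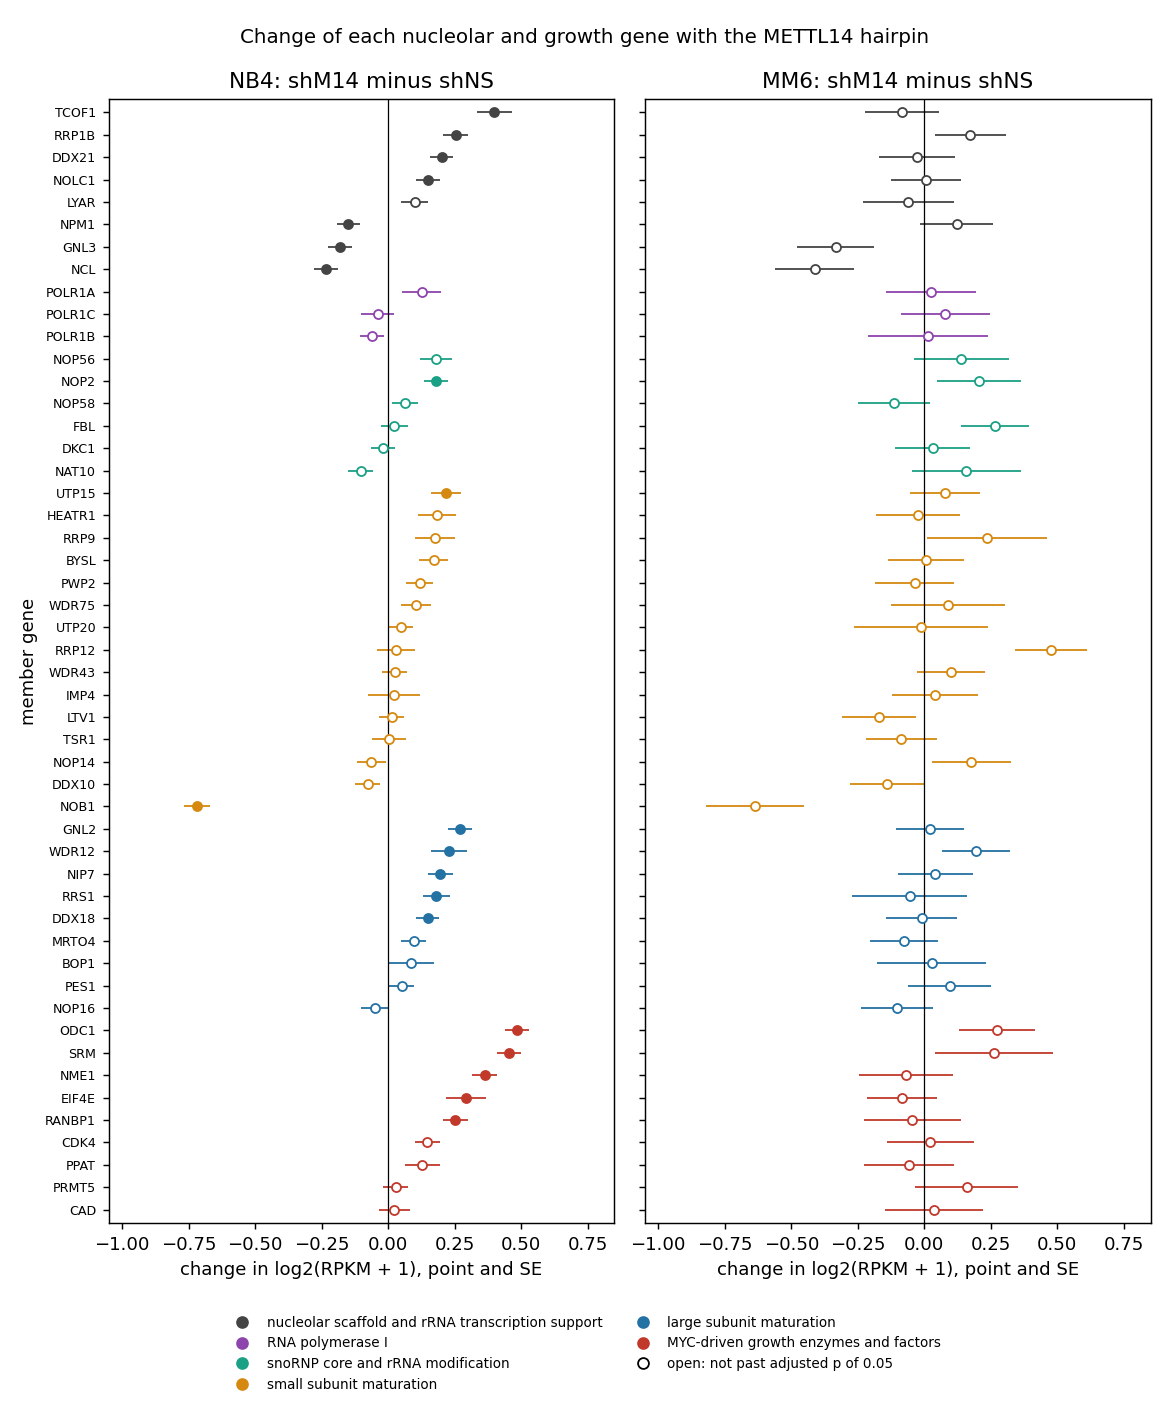
Change in log2(RPKM + 1), shM14 minus shNS, of the 50 members in NB4 (left) and MM6 (right), coloured by role, with the moderated SE as bars. Filled points passed an adjusted p of 0.05 over all tested genes: 20 in NB4, among them NOB1 far to the left at -0.72, and 0 in MM6, where the bars are longer.

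Of 9 growth enzymes and factors, 5 rose in NB4, 0 fell and 4 did not pass, beside 22.1% higher and 25.2% lower of all tested genes, and the median change of the 9 was 0.25. ODC1, ornithine decarboxylase, which makes the polyamine putrescine, had 142 and 141 RPKM in NB4 shM14 against 99.8 and 102 RPKM in NB4 shNS. Its knockdown libraries were both above its controls, a log2 change of 0.49 (SE 0.04, adjusted p = 0.0016). SRM, spermidine synthase, which uses the putrescine made by ODC1, had 86.8 and 85.3 RPKM in NB4 shM14 and 61.8 and 63.2 RPKM in NB4 shNS (0.45, adjusted p = 0.0019). These groups too were wide apart compared with the distance between replicates. NME1, a nucleoside diphosphate kinase, had 79.6 and 78.0 RPKM with shM14 against 60.2 and 62.0 RPKM with shNS (0.36, adjusted p = 0.0038). SRM and NME1 each passed in 11 of 12 alternatives, and failed in the model of all 8 libraries.

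EIF4E, the protein that binds the mRNA cap, had 28.1 and 27.3 RPKM in NB4 shM14 and 24.1 and 20.9 RPKM in NB4 shNS (0.29, SE 0.08, adjusted p = 0.029). RANBP1, a regulator of the RAN GTPase of nuclear transport, had 99.3 and 96.2 RPKM in the knockdown against 81.1 and 82.6 RPKM in the control (0.25, adjusted p = 0.011). EIF4E controls were further apart than those of RANBP1, and its call was lost in 4 of 12 alternatives. The members that did not pass were CDK4, PPAT, PRMT5 and CAD. CDK4, the kinase that opens the way to DNA replication, had 91.8 and 88.7 RPKM with shM14 against 81.8 and 81.1 RPKM with shNS (0.15, adjusted p = 0.053), and passed in 4 alternatives. PPAT, the enzyme that commits to purine synthesis, was at 0.13, and CAD, which starts pyrimidine synthesis, and the arginine methyltransferase PRMT5 were at 0.02 and 0.03.

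Proteins of the nucleolar body and of the support of ribosomal RNA transcription split in NB4: of 8 members 4 were higher, 3 lower and 1 (LYAR, a nucleolar zinc finger protein, at 0.10) did not pass. Of all tested genes 22.1% were higher and 25.2% lower. NCL, nucleolin, had 619 and 621 RPKM in NB4 shM14 and 723 and 735 RPKM in NB4 shNS (-0.23, SE 0.04, adjusted p = 0.012). NPM1, nucleophosmin, a nucleolar chaperone whose gene is often mutated in acute myeloid leukaemia, had 903 and 896 RPKM with shM14 against 1001 and 994 RPKM with shNS (-0.15, adjusted p = 0.042). For both genes each knockdown library was below each control, although the NPM1 call was lost in 8 of 12 alternatives and that of NCL in 3. GNL3, nucleostemin, a GTP-binding protein of stem and tumour cells, had 77.9 and 77.3 RPKM in the knockdown and 87.0 and 89.0 RPKM in controls (-0.18, adjusted p = 0.027), a call lost in 4 of 12.

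Of the same role, TCOF1, RRP1B, DDX21 and NOLC1 rose. TCOF1, treacle, which recruits the ribosomal DNA transcription machinery, had 24.4 and 26.5 RPKM in NB4 shM14 against 18.3 and 19.8 RPKM in NB4 shNS (0.40, SE 0.07, adjusted p = 0.0078). RRP1B, a nucleolar protein of ribosome assembly, had 30.0 and 29.1 RPKM with shM14 and 24.7 and 24.5 RPKM with shNS (0.25, adjusted p = 0.010). The helicase DDX21 and NOLC1, a chaperone of snoRNPs, rose by 0.20 and 0.15. Both calls were lost in the model of all 8 libraries, and that of NOLC1 also when 0.1 instead of 1 was added to RPKM. The members' summed RPKM was 4162 ± 22.0 in NB4 shM14 and 4168 ± 12.9 in NB4 shNS (SD, n = 2 each). NPM1 and NCL together held 36.4% and 36.6% of that sum in the knockdown libraries and 41.5% and 41.4% in the controls. The median member had 40.1 and 39.6 RPKM in the knockdown and 35.7 and 36.5 RPKM in controls.

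**Figure D2:**
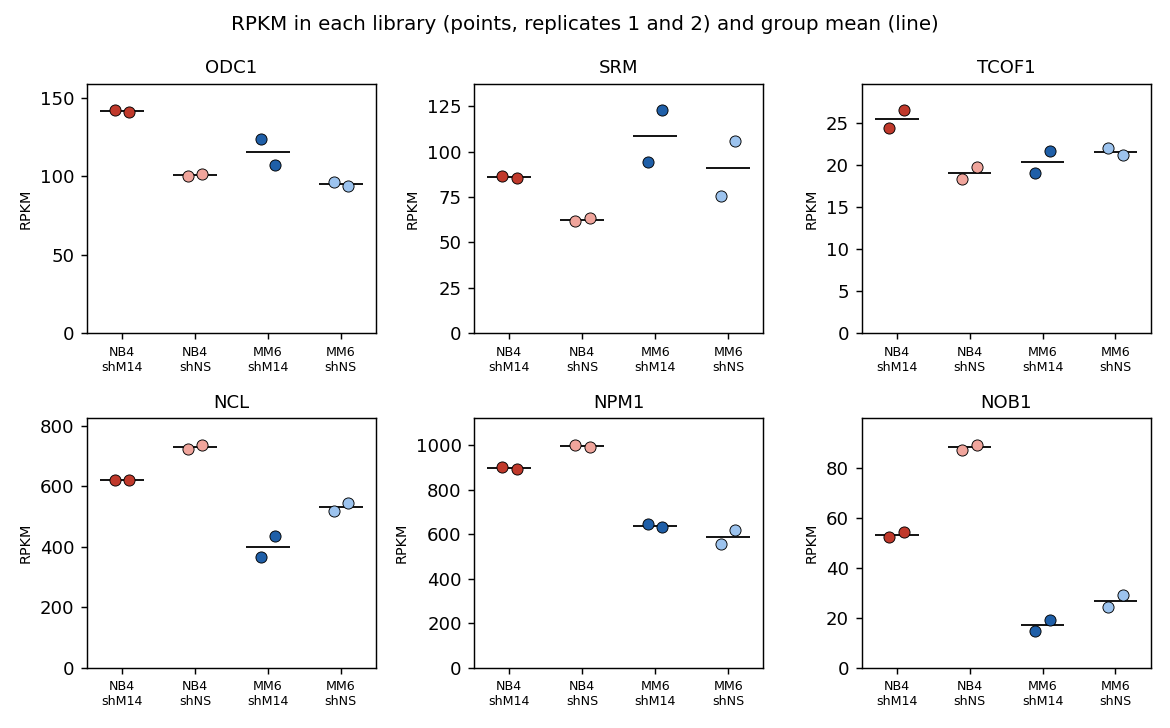
RPKM of 6 members in each library, with replicates 1 and 2 as points and the group mean as a line; each panel has its own axis from 0. In NB4 the knockdown points of ODC1, SRM and TCOF1 lie above the control points and those of NCL, NPM1 and NOB1 below them, while in MM6 NPM1 lies above (631 to 645 against 556 to 620 RPKM).

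Ribosome assembly factors are given by subunit, and the counts of the subunits were not tested against each other. Each is to be read beside the 22.1% higher and 25.2% lower of all tested genes, and the counts for the small subunit and for snoRNPs lay below these shares. For the large subunit, 5 of 9 members were higher, 0 lower and 4 did not pass (median change 0.15). GNL2, a nucleolar GTPase needed for export of the subunit precursor, had 47.9 and 48.1 RPKM in NB4 shM14 and 39.1 and 40.3 RPKM in NB4 shNS (0.27, SE 0.05, adjusted p = 0.0086). WDR12, a partner of PES1 and BOP1 in a complex of precursor processing, rose by 0.23, NIP7 by 0.20, RRS1 by 0.18 and the helicase DDX18 by 0.15. PES1 and BOP1 themselves were at 0.05 and 0.09 and did not pass, nor did MRTO4 (0.10) and NOP16 (-0.05). The 5 calls of this role were lost in the model of all 8 libraries. Those of WDR12, RRS1 and DDX18 were also lost when 0.1 instead of 1 was added to RPKM.

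For the small subunit, 1 of 15 members was higher, 1 lower and 13 did not pass (median change 0.03). NOB1, the endonuclease that makes the last cut of the small subunit RNA, had 52.2 and 54.4 RPKM in NB4 shM14 and 87.4 and 89.2 RPKM in NB4 shNS. This was a change of -0.72 (SE 0.05, adjusted p = 7.5e-04), the largest in size among the 50 members. UTP15, a component of the early processome, rose by 0.22 (adjusted p = 0.031). BYSL (0.17), HEATR1 (0.18), RRP9 (0.18), PWP2 (0.12) and WDR75 (0.10) had positive changes without passing. UTP20, WDR43, RRP12, IMP4, LTV1 and TSR1 were between 0.00 and 0.05, and NOP14 and DDX10 were at -0.06 and -0.08.

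Among the snoRNP and modification members 1 of 6 was higher, 0 lower and 5 did not pass. NOP2, a methyltransferase of large subunit RNA, rose to 39.5 and 39.1 RPKM in NB4 shM14, against 35.1 and 34.1 RPKM in NB4 shNS (0.18, adjusted p = 0.028). FBL, fibrillarin, the methyltransferase of box C/D snoRNPs, had 222 and 210.1 RPKM with shM14 and 211 and 214 RPKM with shNS, and these groups overlapped (0.02, adjusted p = 0.73). Its core partners NOP56 and NOP58 were at 0.18 and 0.06, DKC1, dyskerin, the pseudouridine synthase of box H/ACA snoRNPs, at -0.02, and the acetyltransferase NAT10 at -0.10. The RNA polymerase I subunits POLR1A, POLR1B and POLR1C were at 0.13, -0.06 and -0.04, and 0 of 3 passed.

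Changes in NB4 were also set beside features of the genes in the genome. The E-box is not independent of the list, since the members had been listed as growth genes under MYC. The 23 members with an E-box in the window had a median change of 0.12, with 7 higher and 1 lower, and the 18 without it had a median of 0.01, with 3 higher and 3 lower, where 22.1% of all tested genes were higher and 25.2% lower; this difference was not tested. In RefSeq, 10 of the 50 members contain snoRNA genes within their span (NCL, ODC1, NOP56, DKC1, RANBP1, WDR43, GNL3, NOP58, UTP20 and TSR1), and of these 2 were higher, 2 lower and 6 did not pass, near the 22.1% and 25.2% of all tested genes. The span of 12 members overlaps another protein-coding gene, among them CDK4 with TSPAN31, PPAT with PAICS, NME1 with the readthrough gene NME1-NME2, and GNL3 with GLT8D1. With long non-coding and antisense RNA genes counted as well, 19 members overlap another gene, among them NOB1 with NQO1-DT. Whether counting used the strand is not given in the sources used here, so the values of these members are less certain, as are those of NPM1, which has near-identical pseudogene copies.

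MYC itself fell in NB4, with 173 and 174 RPKM in NB4 shM14 and 256 and 248 RPKM in NB4 shNS (-0.54, adjusted p = 0.0013; not passed in the model of all 8 libraries). Of 10 tested genes of the MYC and MAX network 1 was higher and 3 lower. MXD1, which competes with MYC for MAX, rose by 0.29, a call lost in 2 of 12 alternatives. Of 25 other genes of polyamine and nucleotide synthesis 7 were higher and 2 lower. They were headed by CTPS1, which makes CTP, at 0.49 and the mitochondrial folate enzyme MTHFD2 at 0.35. Of 13 genes of cap-dependent translation 7 were higher and 2 lower. EIF5A, whose hypusine is made from the polyamine spermidine, rose by 0.54, and EIF4EBP2, an inhibitor of EIF4E, fell by 0.87.

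Other ribosome assembly genes gave a mixed account in NB4. For the large subunit 7 of 32 were higher and 5 lower, with SURF6 at -0.73 and BRIX1 at -0.60, both nucleolar assembly factors. For the small subunit 5 of 31 were higher and 2 lower, with RRP36 at 0.51 and NOL11 at 0.26. Of 13 snoRNP and modification genes 4 were higher and 0 lower, with NOP10 (0.42) and NHP2 (0.34), which form the core of box H/ACA particles together with DKC1 and GAR1. Of 12 further genes of ribosomal RNA transcription 2 were higher and 6 lower. TAF1D, a subunit of the selectivity factor of RNA polymerase I, fell by 0.57, and the polymerase subunit gene POLR1E by 0.29. Of 14 proliferation genes 5 were higher and 3 lower, with the proliferation marker MKI67 at 0.48 and cyclin E1 (CCNE1) also at 0.48. All values in these lists are to be read against the 22.1% higher and 25.2% lower of all tested genes.

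In MM6 no member passed: 0 were higher, 0 lower and 50 not passed in limma over 11895 genes, where 0.0504% of all tested genes were higher and 0.0252% lower. At an unadjusted p under 0.05 there were 3 members (NCL, NOB1 and RRP12) of 50, beside 1779 of the 11895 tested genes. Voom on the recovered reads gave 0 members. In the model of all 8 libraries these 3 passed, with adjusted p of 0.044 for NCL, 0.036 for NOB1 and 0.027 for RRP12. In that model 538 of 12804 tested genes were higher in MM6 and 773 lower. None of these member counts exceeded its share among all tested genes. The authors' deposited table has 0 members under its own threshold of 0.05, where 1.58% of the listed genes were higher and 1.69% lower. The median change of the members was 0.02, beside -0.03 over all tested genes. The groups did not overlap for 7 members that were higher and 9 that were lower, against 19.0% and 25.8% of all tested genes. Over all tested genes the SD of the log2 difference between replicates was 0.38 in MM6 shM14 and 0.35 in MM6 shNS, against 0.13 in NB4 shM14 and 0.15 in NB4 shNS. A p that misses the threshold here does not show that a member was unchanged.

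The members that stood out most in MM6 were partly those of NB4. NOB1 had 14.8 and 19.3 RPKM in MM6 shM14 and 24.5 and 29.3 RPKM in MM6 shNS (-0.64, SE 0.18, adjusted p = 0.22). NCL had 367 and 434 RPKM with shM14 against 519 and 544 RPKM with shNS (-0.41, SE 0.15, adjusted p = 0.30). GNL3 had 96.0 and 113 RPKM in the knockdown and 132 and 130.1 RPKM in the control (-0.33, adjusted p = 0.37). In each of these 3 genes both knockdown libraries were below both controls, as in NB4, whereas 15.1% of the 10647 genes tested in both lines were below in both.

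The 3 members above their controls without overlap in both lines were ODC1, RRP1B and WDR12, against 11.6% of those genes, so neither count exceeded its share among all genes. ODC1 had 124 and 107 RPKM in MM6 shM14 and 96.5 and 93.4 RPKM in MM6 shNS (0.27, adjusted p = 0.45). RRP1B had 33.9 and 36.7 RPKM with shM14 against 30.2 and 32.2 RPKM with shNS, and WDR12 had 40.0 and 41.7 RPKM against 35.3 and 35.8 RPKM. RRP12, in yeast an export factor of both subunits, had 16.0 and 14.7 RPKM with shM14 against 10.3 and 11.2 RPKM with shNS (0.48, SE 0.14, adjusted p = 0.21). FBL had 683 and 695 RPKM in the knockdown and 569.8 and 577 RPKM in controls (0.27, adjusted p = 0.41). NPM1 had 645 and 631 RPKM with shM14 against 556 and 619.5 RPKM with shNS (0.12, adjusted p = 0.77), so that it was without overlap in both lines but in opposite directions, as were EIF4E, MRTO4 and NOP58. These 4 members compare with 8.71% of the genes tested in both lines. CDK4 had 94.5 and 105 RPKM in MM6 shM14 and 88.2 and 109 RPKM in MM6 shNS, which overlapped (0.02, adjusted p = 0.98).

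The members varied in MM6 with the replicate number as well. The median member had 29.6 RPKM in replicate 1 and 36.0 RPKM in replicate 2 of MM6 shM14, and 29.0 and 32.5 RPKM in replicates 1 and 2 of MM6 shNS. For 38 of the 50 members (76%) replicate 2 was above replicate 1 in both groups, against 50.4% of all tested genes. MYC had 35.8 and 106 RPKM in replicates 1 and 2 of MM6 shM14 and 73.0 and 115 RPKM in replicates 1 and 2 of MM6 shNS. Its change of -0.56 did not pass (SE 0.52, adjusted p = 0.71) and turned to 0.21 without knockdown replicate 1. The 8 monocyte markers summed to 14583 and 8312 RPKM in replicates 1 and 2 of MM6 shM14 and 9314 and 5911 RPKM in replicates 1 and 2 of MM6 shNS, with LYZ as the main contributor. The part of the replicates' differences in the members' values was not tested.

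**Figure D3:**
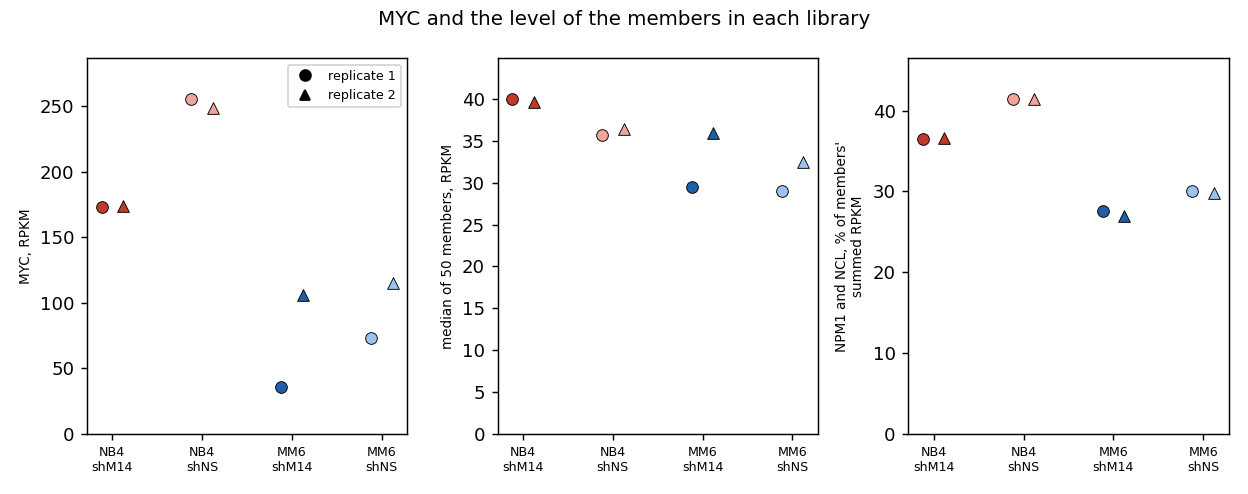
Level in each library of MYC (left), of the median member (middle) and of NPM1 and NCL as a share of the members' summed RPKM (right), with replicate 1 as circles and replicate 2 as triangles. MYC is lower in NB4 shM14 (173 and 174 RPKM) than in NB4 shNS (256 and 248 RPKM) while the median member is higher there, and in MM6 replicate 2 lies above replicate 1 for MYC and the median member in both groups.

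Over both lines together, in a model of cell line and hairpin over 12804 genes, 1 member was higher, 2 were lower and 47 did not pass, where 4.8% of all tested genes were higher and 7.1% lower. NOB1 changed by -0.68 (SE 0.10, adjusted p = 0.0065), ODC1 by 0.38 (SE 0.08, adjusted p = 0.020) and NCL by -0.32 (SE 0.08, adjusted p = 0.035), and for each the groups did not overlap in either line. NOB1 was the 1 member left when any NB4 library was left out. NCL also failed without MM6 control replicate 1 and without MM6 control replicate 2, with 2 and 3 members passing. Next in order of p came GNL3 at -0.26 (adjusted p = 0.063), RRP1B at 0.21 (adjusted p = 0.068) and WDR12 at 0.21 (adjusted p = 0.073). CDK4 (0.08), FBL (0.14) and NPM1 (-0.01) did not pass. Outside the members, the proliferation genes CCNE1 (0.45) and CDK2 (-0.32) passed over both lines (adjusted p = 0.024 each). Each of them lost the call in 5 of 15 alternatives. Of the remaining lists, UTP23 (-0.32), BRIX1 (-0.66), SURF6 (-0.64), TAF1D (-0.40) and EIF4EBP2 (-0.79) fell over both lines. EIF5A (0.41) and IMPDH1, an enzyme of guanine nucleotide synthesis (0.35), rose. BRIX1 and EIF4EBP2 passed in each of the 15 alternatives tried, and the other 5 lost the call in at least 3 of the 4 fits that left out 1 NB4 library.

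The lines were not shown to respond differently. The difference of the changes, NB4 minus MM6, passed for 0 of 50 members in limma, where 1.39% of all tested genes were higher and 1.53% lower. There were 4 of 50 members at an unadjusted p under 0.05, beside 2511 of the 12804 tested genes, so the members did not exceed the share of all genes. Voom on the recovered reads called 0 members. TCOF1 had the smallest p, with a change of 0.40 in NB4 and -0.08 in MM6 and a difference of 0.48 (95% interval 0.16 to 0.81, adjusted p = 0.12). Its MM6 levels overlapped, at 19.0 and 21.7 RPKM with shM14 and 22.0 and 21.1 RPKM with shNS. RRP12 had 0.03 in NB4 and 0.48 in MM6, a difference of -0.45 (95% interval -0.77 to -0.13, adjusted p = 0.14). EIF4E had a change of 0.29 in NB4 and -0.08 in MM6, where its levels of 26.8 and 28.3 RPKM with shM14 lay next to 28.3 and 30.1 RPKM with shNS, a difference of 0.38 (95% interval 0.06 to 0.69, adjusted p = 0.18). GNL2 (0.25), FBL (-0.24) and NPM1 (-0.27) had adjusted p of 0.24 to 0.26. For ODC1 the difference was 0.21, for NCL 0.18 and for CDK4 0.12.

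The level of the members differed between the lines already under the control hairpin. Values of the lines come from separate tables in which each library was scaled to its own reads. Of 50 members 22 were higher and 11 lower in NB4 shNS than in MM6 shNS, and 17 did not pass, where 36.7% of all tested genes were higher and 34.5% lower, so the share that differed in either direction was close to that of all tested genes. The groups did not overlap for 24 members that were higher and 14 that were lower, against 44.8% and 42.3% of all tested genes. In both lines NPM1 was the most abundant member, at 998 ± 5.14 RPKM in NB4 shNS and 588 ± 45.0 RPKM in MM6 shNS (SD, n = 2 each; 0.76, adjusted p = 1.6e-04). NCL ranked next in NB4 with 729 ± 8.58 RPKM and next after FBL in MM6 with 531 ± 17.7 RPKM (SD, n = 2 each; 0.46, adjusted p = 0.0046).

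FBL, which stood between them in MM6, had 211 and 214 RPKM in NB4 shNS and 569.8 and 577 RPKM in MM6 shNS, a log2 difference of -1.43 (SE 0.07, adjusted p = 5.4e-06). NME1 had 60.2 and 62.0 RPKM in NB4 shNS against 144 and 184 RPKM in MM6 shNS (-1.40, adjusted p = 8.3e-05). BOP1 (-0.70), GNL3 (-0.57), PWP2 (-0.56), LTV1 (-0.53), SRM (-0.51) and MRTO4 (-0.43) were lower in NB4 as well. BOP1 missed the threshold without NB4 control replicate 1 (-0.59, adjusted p = 0.062). SRM missed it without any 1 of the 4 NB4 libraries (-0.53 to -0.49) and without MM6 control replicate 2 (-0.27).

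The largest difference in the other direction was that of NOB1, with 87.4 and 89.2 RPKM in NB4 shNS and 24.5 and 29.3 RPKM in MM6 shNS (1.68, SE 0.14, adjusted p = 4.7e-05). PES1 (1.08), UTP20 (1.07), DKC1 (1.03), PPAT (0.96), LYAR (0.89), DDX10 (0.85) and IMP4 (0.83) followed. PES1 had 46.7 and 48.7 RPKM in NB4 shNS and 19.7 and 24.5 RPKM in MM6 shNS. UTP20, the least abundant member in MM6, had 10.5 and 10.5 RPKM in NB4 shNS and 3.61 and 5.47 RPKM in MM6 shNS. DKC1 had 54.4 and 56.2 RPKM in NB4 shNS and 25.1 and 28.0 RPKM in MM6 shNS, so DKC1 was higher, and FBL lower, in NB4 than in MM6. Partners of these enzymes did not follow them. Of box C/D, NOP58 was higher in NB4 (0.46, adjusted p = 0.0021) and NOP56 did not pass (0.11). Of box H/ACA, NOP10 was lower in NB4 (-1.27, adjusted p = 2.4e-05). ODC1 (0.08, adjusted p = 0.43) and CDK4 (-0.27, adjusted p = 0.077) did not pass. MYC was higher in NB4 shNS than in MM6 shNS by 1.45 (adjusted p = 0.025), a call lost without either NB4 control library and without MM6 control replicate 1. Small subunit members had 8 higher and 3 lower of 15, large subunit members 3 higher and 2 lower of 9, and growth members 2 higher and 3 lower of 9. These counts are to be read beside the 36.7% higher and 34.5% lower of all tested genes, and the roles were not tested against each other.

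**Figure D4:**
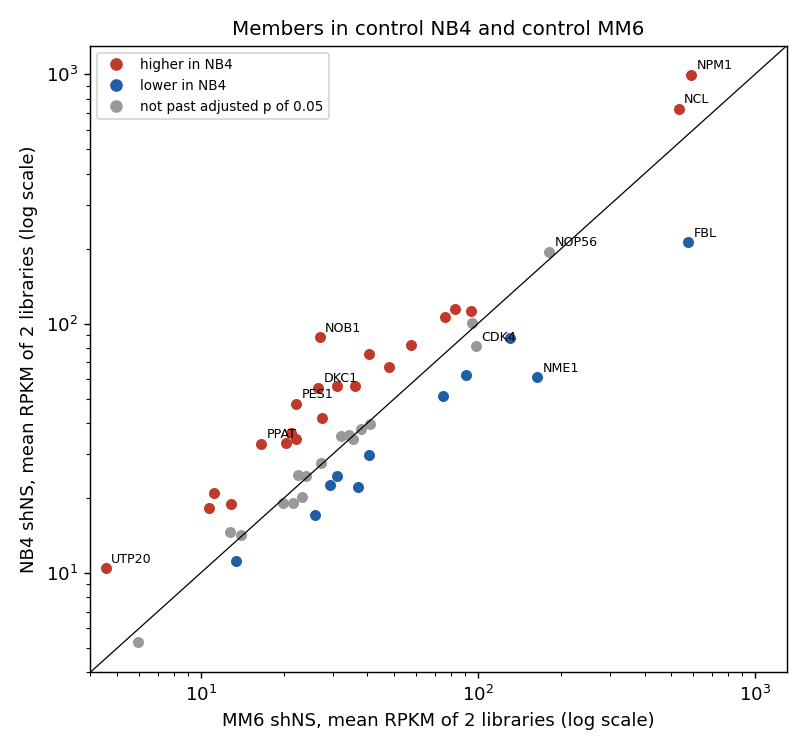
Mean RPKM of each member in NB4 shNS (vertical) and MM6 shNS (horizontal), both on log scales, with the line of equality. Red members passed as higher in NB4 (22), blue ones as lower (11) and grey ones did not pass (17); FBL and NME1 lie furthest below the line and NOB1 furthest above it.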

How the data were processed

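Per the labels, poly(A) RNA was purified from 100 ng of total RNA, made into libraries with a directional kit and sequenced as single-end reads of 50 bases. No source used here names the aligner, the counter, its strand setting or the genome build. The deposited tables, 1 per cell line, hold RPKM per library by the authors, group means of size-factor-scaled reads (a signal per gene, made by the authors), and the authors' fold change as a ratio, its log2 value, and p-values of a test that is not named. Library columns were matched to samples through the labels.

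The fits here used limma 3.58.1 (R 4.3.3) on log2(RPKM + 1) of genes with RPKM of at least 1 in at least 2 of the fitted libraries, with Benjamini-Hochberg adjustment over all tested genes and a threshold of 0.05. Each line was fitted alone (2 against 2 libraries). The joint change came from a model of line and hairpin, and the difference between lines and between controls from 4 group means over 8 libraries. SE is limma's moderated error. Fold changes are on the log2(RPKM + 1) scale, which understates low genes. A filter, a scaling, voom on whole reads and the omission of each library were tried as alternatives. Whole reads were recovered from RPKM and the group means, with 100% of values within 0.01 of a whole number, and give the depth. The steps were tested on simulated data, where 97.5% of 2-fold changes were recovered in NB4 and 89.4% in MM6. Unchanged genes were called as well: 35 in NB4, beside 192 recovered, and 29 in MM6, beside 177. Both lines were simulated with the same fixed spread, not with that of their own replicates, which was wider in MM6 than in NB4. The 2-fold changes were also larger than the hairpin change of any member. These shares therefore do not tell how many changes of the members' size were missed in either line.

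The members were chosen, and the gene lists and tests written, with earlier results of these data known. The named members are up to 8 members per direction with the largest change past the threshold, the 6 with the smallest p where fewer than 6 passed, and NCL, NPM1, FBL, ODC1, CDK4, MYC and METTL14. Of other lists the 2 genes with the smallest p are named. Promoter windows are RefSeq's, matched by gene identifier. Of 6 lymphoid markers 4 had a row, summing to at most 63.9 RPKM in NB4 and 2.63 RPKM in MM6, and epithelial or stromal markers summed to 16.8 to 33.5 RPKM. Python 3.11.15 with pandas 2.3.3 and matplotlib 3.10.9 was used for summaries and figures.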

Additional observations from a re-analysis of the deposited data

How the results depend on the processing

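The 20 members that passed in NB4 became 3 when all 8 libraries shared 1 model and between 5 and 15 when 1 library was left out; the other alternatives gave 15 to 27. ODC1, TCOF1 and NOB1 passed in each of the 12 alternatives. In MM6, 2 members passed with the replicate number as a block (NOB1 lower, RRP12 higher) and 3 with all 8 libraries in 1 model, while leaving out a library gave 0 to 0. Over both lines the 3 members became 7 with median-of-ratios scaling and 5 with voom, and 1 to 3 without a library. The difference between lines gave 0 in every alternative. The control lines gave 26 to 33 without a library, and 31 to 34 otherwise. The causes of these shifts were not tested.

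The labels do not say that replicate numbers pair libraries, and same-numbered libraries deviated together with a correlation of 0.08 in NB4 and 0.70 in MM6. With the replicate block 17 members passed in NB4, 4 over both lines, 0 for the difference and 33 between control lines. In MM6, adjusted p with the block was 0.020 for NOB1, 0.047 for RRP12 and 0.0089 for METTL14. None of them passed when MM6 was fitted alone without the block, whereas each passed in the model of all 8 libraries, which had no block.

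Changes that turned sign were small or rested on MM6 libraries. FBL in NB4 ranged from -0.016 to 0.062 without a library, CDK4 in MM6 from -0.13 to 0.17 (-0.05 without knockdown replicate 2), and its difference between lines from -0.027 to 0.28. NPM1 over both lines was 0.015 with median-of-ratios scaling and -0.072 to 0.015 without a library. MYC ranged from -1.33 to 0.21 in MM6, and from -0.75 to 0.79 for the difference (-0.30 without MM6 control replicate 2). METTL14 between control lines was -0.029 with that scaling and -0.048 to 0.11 without a library (-0.01 without MM6 control replicate 1). Each member had at least 665 reads in each library, and precision was limited by the spread of 2 libraries per group.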

Other observations

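ELANE, a granule protease of promyelocytes, had 0.0387 and 6.45 RPKM in replicates 1 and 2 of NB4 shM14, and 0.0462 and 6.83 RPKM in replicates 1 and 2 of NB4 shNS, so it split the NB4 libraries by replicate number and not by hairpin. In MM6 it had 2275 and 2410 RPKM with shM14 and 1599 and 1709 RPKM with shNS.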
